A study of Mus musculus with 8 samples.

Results

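The genes described here run mitosis, the stage of the cell cycle in which duplicated chromosomes condense, attach through their kinetochores to the spindle and are pulled apart. A list of 43 mitotic regulators and kinetochore genes, with kinesins left out, was matched to the row names of an array table of 18132 rows. Of these names 40 had a row, and NUF2, CKAP2 and SMC4 had none under the listed name. The 40 genes were described in mouse embryonic fibroblasts (MEFs), cells grown from trypsinized embryos, of 4 groups with 2 samples each. These were Btg1-/- MEFs kept for 16 hours without glutamine, untreated Btg1-/- MEFs, WT MEFs kept for 16 hours without glutamine, and untreated WT MEFs, all primary cells of the C57BL/6J strain from embryos of day 13.5. BTG1 is a protein known to restrain cell growth, and glutamine feeds nucleotide synthesis and other pathways of dividing cells.

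The transcripts of mitotic genes are known to be scarce in resting cells and early in the cycle, and to accumulate from late S phase to mitosis. In resting cells the DREAM complex represses them through the cell cycle genes homology region (CHR), a short promoter element. In dividing cells B-MYB and FOXM1 join the complex that binds the same element, and NF-Y binds nearby CCAAT boxes. In these bulk samples fewer cycling cells and less mitotic RNA per cell cannot be told apart. The glutamine-free medium contained dialyzed serum and the usual medium did not, so the loss of glutamine and the change of serum cannot be told apart.

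Values are log2 expression after RMA normalization, and the study's methods take 3 as the background level. Btg1 itself stood at 10.43 ± 0.04 in starved and 9.26 ± 0.14 in untreated Btg1-/- cells, against 12.40 ± 0.00 in starved and 11.20 ± 0.04 in untreated WT cells (SD, n = 2 each). Where its probe lies in the gene was not analysed here, so this checks the labels only in part. The median of 10 fibroblast markers lay between 8.93 and 10.37 on the 8 arrays. That of 5 endothelial markers lay between 3.47 and 4.56 and that of 4 epithelial markers between 4.16 and 5.61. The median of 4 skeletal muscle markers lay between 2.33 and 2.91. The endothelial marker EMCN stood above its list's median, at 8.81 and 8.84 in starved and 9.35 and 9.14 in untreated Btg1-/- cells. In WT cells it measured 8.25 and 7.58 starved and 8.65 and 7.84 untreated. By their means, 1 of the 5 endothelial markers was higher in Btg1-/- than in WT cells when starved and 2 when untreated. The median of 12 macrophage markers was 7.32 and 5.90 on the starved and 8.04 and 6.03 on the untreated Btg1-/- arrays, against 4.70 and 4.84 on the starved and 4.69 and 4.85 on the untreated WT arrays. Each of these 12 markers was higher on both arrays of Btg1-/- replicate 1 than on the other 6. The Y-linked transcript EIF2S3Y was high in WT replicate 2 only, at 9.49 in starved and 9.81 in untreated cells, so the WT replicates did not come from the same embryos. On the 4 Btg1-/- arrays it lay between 1.94 and 2.49, so this Y-linked signal was not balanced between the genotypes. The part of embryo sex in the genotype differences was not tested.

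Most of the listed genes fell when glutamine was removed, in both genotypes. In starved against untreated Btg1-/- MEFs 30 of the 40 genes fell, none rose, and the median change was -1.48 on the log2 scale (range -2.76 to 0.62). In starved against untreated WT MEFs 37 of the 40 fell, none rose, and the median change was -1.59 (range -2.52 to -0.08). A gene was called when its adjusted p (limma, Benjamini-Hochberg over the 12691 rows at or above background in at least 1 group) was under 0.05. Among all those rows 7.24% fell in Btg1-/- cells and 11.6% in WT cells, and the median change was 0.03 in both. The same 30 genes were called lower in both genotypes and 7 in WT cells only. The difference in response passed the adjustment for none of those 7. Both starved arrays lay below both untreated arrays for 38 of the 40 genes in Btg1-/- cells and for 39 in WT cells. The share of all rows separated in this way was not counted. The methods' rule, a fold change of at least 3 between group means without a test, was met by 16 of the 40 in Btg1-/- cells and by 21 in WT cells, against 1.3% and 2.61% of all rows tested. The list was drawn up with results of these arrays known, so these counts describe it and are not independent evidence of its direction. Fibroblast markers moved the same way. Of 10 such genes 4 fell in starved Btg1-/- cells (median change -0.62) and 8 in starved WT cells (median change -1.26), none rose, and between the starved genotypes 3 were called higher in Btg1-/- cells (median difference, Btg1-/- minus WT, 0.71). The part of this shift in the mitotic values was not tested.

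**Figure D1:**
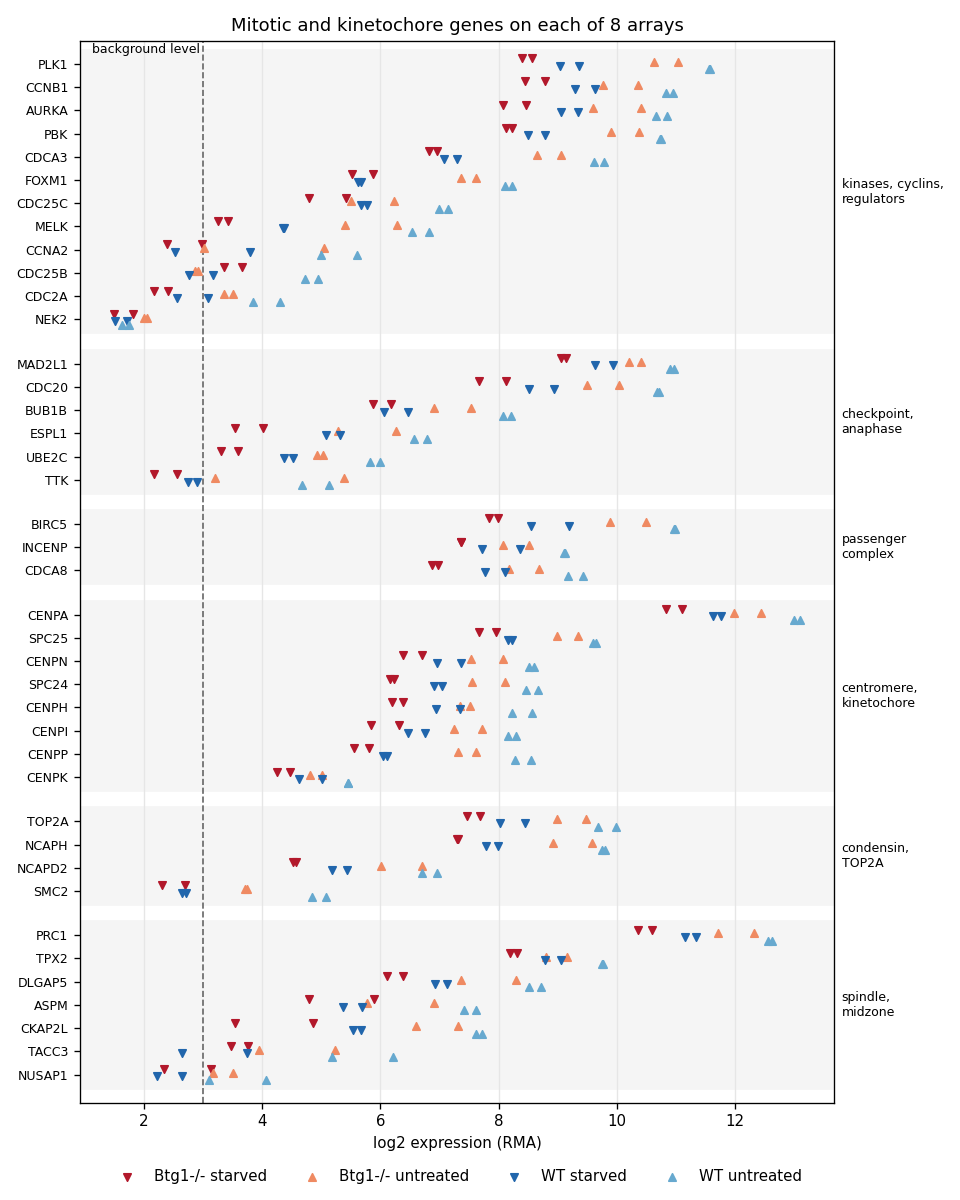
Log2 expression of the 40 mitotic and kinetochore genes (horizontal axis, RMA values), 1 symbol for each of the 8 arrays, in 6 groups by role. Downward triangles are starved and upward triangles untreated samples, Btg1-/- in reds and WT in blues, and the dashed line marks the background level of 3. Symbols of starved samples lie to the left of those of untreated samples of the same genotype for 38 genes in Btg1-/- and 39 genes in WT cells. The same count was not made over all rows.

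Leaving out each array in turn kept the count between 26 and 32 in Btg1-/- cells and between 31 and 37 in WT cells, and 25 and 30 genes were called in every such fit. Without WT replicate 2 at both times, a comparison chosen after the data were seen, the WT count was 19.

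The 4 groups stood in the same order for most of the genes. By group means, 35 of the 40 ran from starved Btg1-/- cells, the lowest, through starved WT and untreated Btg1-/- cells to untreated WT cells, the highest. For 23 of the 40 no array of 1 group overlapped the next group in this order. Neither count was made over all rows tested, so both describe these genes only. The median over the 40 genes was 6.00 and 6.18 on the starved and 7.35 and 7.67 on the untreated Btg1-/- arrays, against 6.90 and 6.69 on the starved and 8.41 and 8.37 on the untreated WT arrays. The responses of the 40 genes in the 2 genotypes correlated with a Pearson r of 0.528 and a Spearman rho of 0.603, across genes that share arrays and are not independent replicates.

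The promoters of these genes were read for the elements named above. RefSeq windows (GRCm38.p6) of 300 bases, from 250 before to 50 after the annotated transcript start, were found for 34 of the 43 genes, 37 windows in all. The CHR was searched as TTTGAA or TTTAAA and the NF-Y box as CCAAT, each on both strands, where matches of the CHR and of CCAAT can share at most 1 base. A CHR match stood in 23 of the 37 windows (62.2%) and in 42 of 78 windows of other mitotic genes (53.8%), against 5 of 27 windows of S phase replication genes (18.5%), 21.1% of the windows of genes tested on the arrays and 27.6% of all 32851 windows. Within 50 bases of the start it stood in 54.1% of the windows of the listed genes, in 39.7% of those of other mitotic genes and in 5.62% of those of the genes tested. With TTTGAA alone the shares over whole windows were 56.8%, 46.2% and 12.9%, and those within 50 bases of the start 51.4%, 34.6% and 3.19%. CCAAT stood in 78.4% of the windows of the listed genes, in 65.4% of those of other mitotic genes, in 66.7% of those of S phase genes and in 37.4% of those of the genes tested. Both elements stood in 59.5%, 38.5%, 14.8% and 8.37% of them. Within the other mitotic genes, a CHR match stood in 13.3% of windows of anaphase promoting complex genes and 86.7% for spindle and cytokinesis genes. The share was 33.3% for condensin and cohesin genes, 58.3% for kinetochore and centromere genes and 66.7% for kinases, cyclins and regulators. These matches are letters in a window and no binding was measured here.

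**Figure D2:**
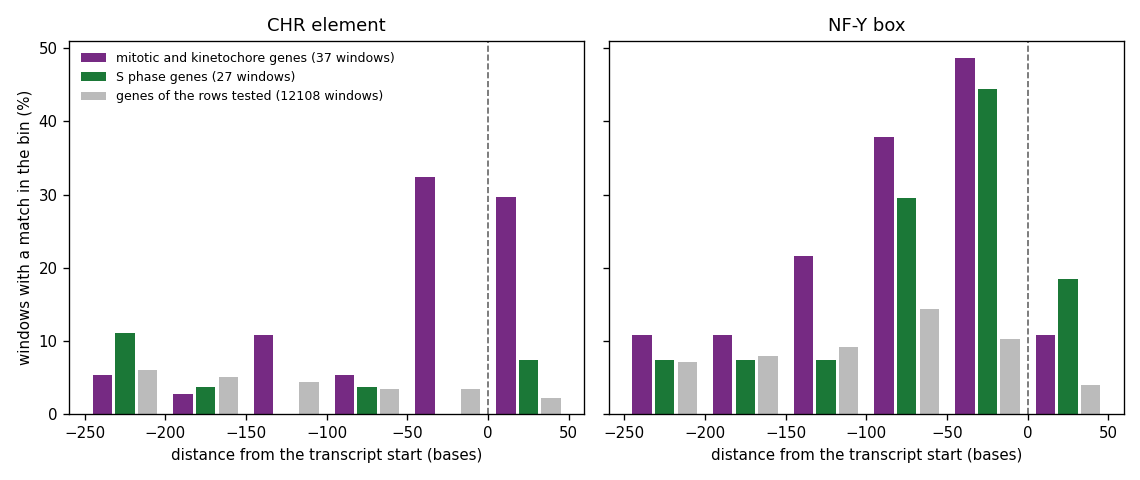
Share of promoter windows (vertical axis, percent) with a CHR match (left) or an NF-Y box match (right) that starts in each bin of 50 bases, by distance from the transcript start (horizontal axis, bases). Bars are mitotic and kinetochore genes (37 windows), S phase genes (27 windows) and genes of the rows tested (12108 windows). CHR matches of the mitotic genes gather in the 50 bases on either side of the start, at 32.4% and 29.7% of windows, while NF-Y boxes of mitotic and S phase genes both peak in the 50 bases before it.

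Shown are 150 bases, from 120 before to 30 after the start, of 6 genes. They had the highest level in untreated WT cells among those with a single window and a CHR match close to the start. All 6 fell in both genotypes, as did 30 of the 40 listed genes, and the response was not used to choose them. CHR and CCAAT matches are in capitals.
Cenpa (chr5:30666766-30666915, + strand): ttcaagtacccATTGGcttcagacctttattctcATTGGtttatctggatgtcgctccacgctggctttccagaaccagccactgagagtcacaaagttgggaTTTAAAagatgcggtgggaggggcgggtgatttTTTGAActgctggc
Plk1 (chr7:122159315-122159464, + strand): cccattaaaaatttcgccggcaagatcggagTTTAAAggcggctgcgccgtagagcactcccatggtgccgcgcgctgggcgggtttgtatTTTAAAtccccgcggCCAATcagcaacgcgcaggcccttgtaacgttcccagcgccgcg
Ccnb1 (chr13:100786457-100786606, - strand): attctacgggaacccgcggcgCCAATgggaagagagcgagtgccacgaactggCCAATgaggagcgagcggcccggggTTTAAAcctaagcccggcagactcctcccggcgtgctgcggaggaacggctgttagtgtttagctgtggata
Aurka (chr2:172370541-172370690, - strand): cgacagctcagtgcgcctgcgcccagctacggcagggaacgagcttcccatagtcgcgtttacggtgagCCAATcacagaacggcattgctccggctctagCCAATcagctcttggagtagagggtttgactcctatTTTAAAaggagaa
Cdc20 (chr4:118437314-118437463, - strand): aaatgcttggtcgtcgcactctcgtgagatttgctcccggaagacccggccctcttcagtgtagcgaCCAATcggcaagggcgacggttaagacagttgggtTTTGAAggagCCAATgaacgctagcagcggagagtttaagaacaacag
Top2a (chr11:99024160-99024309, - strand): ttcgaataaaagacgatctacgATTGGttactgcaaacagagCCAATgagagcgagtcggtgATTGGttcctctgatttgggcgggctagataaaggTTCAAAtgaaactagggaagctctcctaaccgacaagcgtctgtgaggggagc

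Counted from the transcript start, the CHR matches nearest to it began at positions -17 and 16 in Cenpa, -29 in Plk1, -42 in Ccnb1, 17 in Aurka, -18 in Cdc20 and -23 in Top2a. In the stretches shown, Cdc20 and Top2a held TTTGAA or its reverse, Plk1, Ccnb1 and Aurka held TTTAAA, and Cenpa held both. Among the 32 measured genes with a window, the 21 with a CHR match had median responses of -1.53 in Btg1-/- and -1.56 in WT cells. The 11 without one had -1.14 and -1.62. Both sets hold genes with group means under the background level, which limits their responses. These were NEK2, CDC25B and NUSAP1 without a match and CDC2A, TTK and SMC2 with one. Their part in the medians was not tested.

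Kinases and cyclins drive entry into mitosis. Of 12 genes of this group 7 fell in starved Btg1-/- cells and 11 in starved WT cells, with median changes of -1.59 and -1.97. PLK1, the kinase that matures centrosomes and opens mitosis, measured 8.39 and 8.57 in starved and 10.62 and 11.03 in untreated Btg1-/- cells, and 9.36 and 9.04 in starved and 11.57 and 11.55 in untreated WT cells. Starvation lowered it 5.07-fold in Btg1-/- cells (log2 -2.34, standard error (SE) 0.15, adjusted p = 4.1e-05 from limma) and 5.13-fold in WT cells (log2 -2.36, SE 0.15, adjusted p = 1.9e-05). All 4 starved arrays lay more than 1 log2 unit below all 4 untreated arrays. CCNB1, cyclin B1, the partner of CDK1, measured 8.44 and 8.78 in starved and 9.76 and 10.36 in untreated Btg1-/- cells, and 9.62 and 9.29 in starved and 10.94 and 10.83 in untreated WT cells. It fell 2.73-fold in Btg1-/- cells (log2 -1.45, SE 0.20, adjusted p = 0.0016) and 2.69-fold in WT cells (log2 -1.43, SE 0.20, adjusted p = 0.0008). The 4 groups did not overlap. AURKA, the centrosomal Aurora kinase, measured 8.07 and 8.46 in starved and 9.59 and 10.41 in untreated Btg1-/- cells, and 9.34 and 9.05 in starved and 10.66 and 10.85 in untreated WT cells. It fell 3.33-fold in Btg1-/- (log2 -1.74, SE 0.24, adjusted p = 0.0018) and 2.94-fold in WT cells (log2 -1.56, SE 0.24, adjusted p = 0.0014). As in CCNB1, starved WT and untreated Btg1-/- cells lay next to each other without overlap.

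The transcription factor FOXM1, which activates G2 and mitotic genes, had the largest response in WT cells. It measured 5.87 and 5.52 in starved and 7.36 and 7.62 in untreated Btg1-/- cells, and 5.62 and 5.68 in starved and 8.11 and 8.23 in untreated WT cells. The fall was 3.47-fold in Btg1-/- (log2 -1.79, SE 0.20, adjusted p = 0.00068) and 5.72-fold in WT cells (log2 -2.52, SE 0.20, adjusted p = 4.8e-05). Its starved levels overlapped between the genotypes while its untreated levels did not. CDCA3, a factor that helps degrade the mitosis inhibitor WEE1, came next in WT cells and measured 6.83 and 6.95 in starved and 8.65 and 9.05 in untreated Btg1-/- cells, and 7.29 and 7.08 in starved and 9.78 and 9.61 in untreated WT cells. It fell 3.88-fold in Btg1-/- (log2 -1.95, SE 0.17, adjusted p = 0.00019) and 5.68-fold in WT cells (log2 -2.51, SE 0.17, adjusted p = 2e-05). MELK, a kinase abundant in proliferating cells, measured 3.26 and 3.43 in starved and 5.41 and 6.28 in untreated Btg1-/- cells, and 4.35 and 4.37 in starved and 6.53 and 6.82 in untreated WT cells. It fell 5.66-fold in Btg1-/- (log2 -2.50, SE 0.34, adjusted p = 0.0014), 1 of the 2 largest responses there, and 4.97-fold in WT cells (log2 -2.31, SE 0.34, adjusted p = 0.00097). PBK, a mitotic kinase, fell by 1.96 and 2.09 on the log2 scale in Btg1-/- and WT cells. CDC25C, a phosphatase that activates CDK1, was called lower in WT cells only. Its log2 changes were -0.76 (adjusted p = 0.13 from limma) in Btg1-/- and -1.34 (adjusted p = 0.01) in WT cells. In both genotypes its starved arrays lay below its untreated arrays.

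The other members of this group lay near background. CDC2A, the row of Cdk1, the kinase at the centre of mitotic entry, measured 2.41 and 2.17 in starved and 3.36 and 3.50 in untreated Btg1-/- cells, and 3.08 and 2.57 in starved and 4.30 and 3.84 in untreated WT cells. It changed by -1.14 in Btg1-/- cells, at least 1.35-fold against background (SE 0.36, adjusted p = 0.062) and fell by 1.25 on the log2 scale in WT cells (SE 0.36, adjusted p = 0.031). CCNA2, cyclin A2, measured 2.39 and 2.99 in starved and 3.01 and 5.05 in untreated Btg1-/- cells, and 2.52 and 3.79 in starved and 5.60 and 5.0 in untreated WT cells. In untreated Btg1-/- cells its replicates lay more than 2 log2 units apart, and it changed by -1.34 in Btg1-/-, at least 2.04-fold against background (SE 0.66, adjusted p = 0.22) and -2.15 in WT cells (SE 0.66, adjusted p = 0.041). CDC25B, another CDK-activating phosphatase, measured 3.66 and 3.35 in starved and 2.86 and 2.91 in untreated Btg1-/- cells, and 2.77 and 3.17 in starved and 4.94 and 4.72 in untreated WT cells. It fell 3.63-fold in starved WT cells (log2 -1.86, SE 0.34, adjusted p = 0.0032) and was the only gene with a positive value in Btg1-/- cells (log2 0.62, SE 0.34, adjusted p = 0.27). Both untreated Btg1-/- arrays were under the background level, so only the untreated WT samples stood clearly above it. NEK2, a centrosome kinase, measured between 1.5 and 2.06 on all 8 arrays and was not tested.

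**Figure D3:**
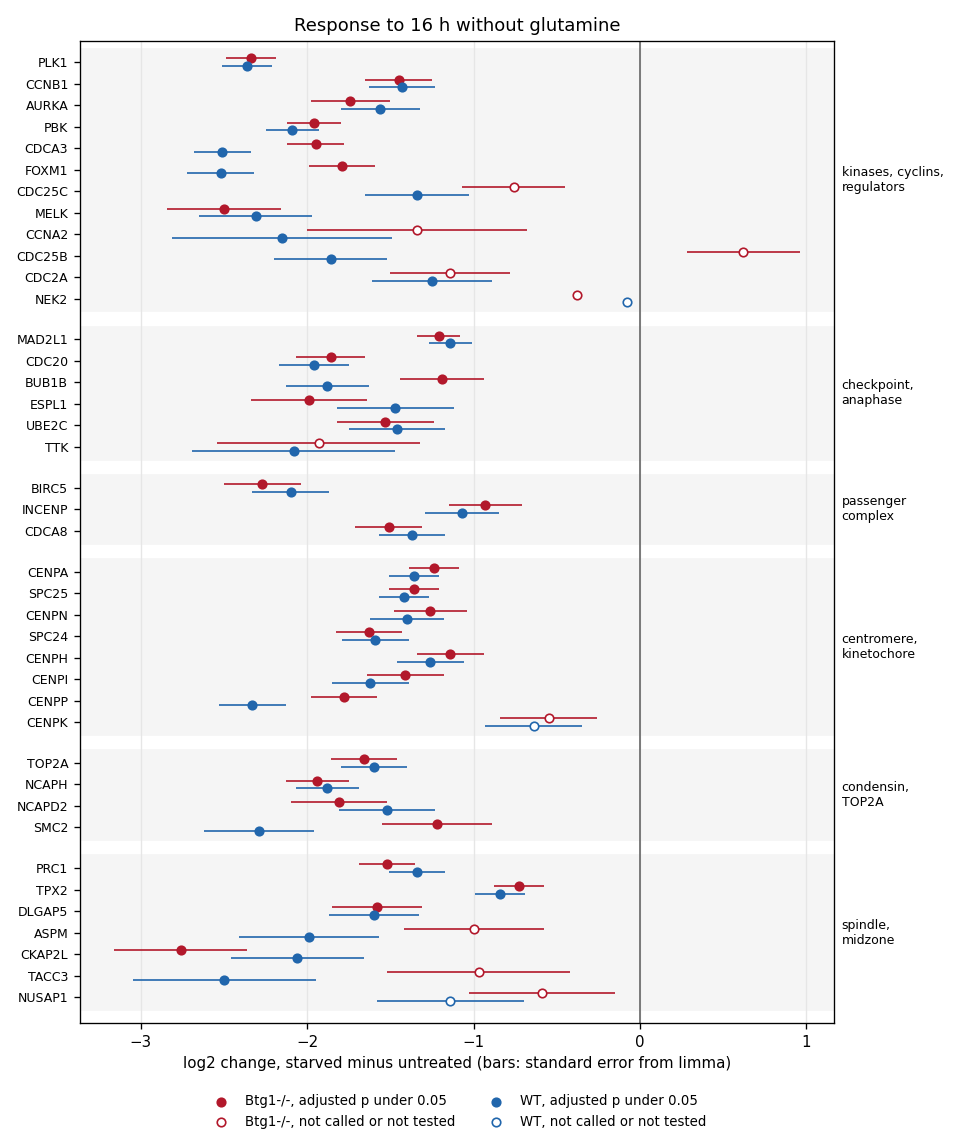
Log2 change of each of the 40 genes after 16 h without glutamine (horizontal axis, starved minus untreated), Btg1-/- in red above WT in blue. Points are differences of group means (n = 2 each), bars standard errors from limma, filled points an adjusted p under 0.05, and NEK2 without bars was not tested. Filled points number 30 in Btg1-/- and 37 in WT cells, all left of 0.

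The spindle checkpoint holds anaphase until every kinetochore is attached, after which CDC20 and UBE2C let the anaphase promoting complex (APC) mark securin and cyclin B for destruction and separase cuts cohesin. Of 6 genes of this group 5 fell in Btg1-/- and all 6 in WT cells, with median changes of -1.69 and -1.68. MAD2L1, the checkpoint protein that sequesters CDC20, measured 9.06 and 9.14 in starved and 10.21 and 10.41 in untreated Btg1-/- cells, and 9.94 and 9.63 in starved and 10.96 and 10.89 in untreated WT cells. It fell 2.31-fold in Btg1-/- (log2 -1.21, SE 0.13, adjusted p = 0.00046) and 2.2-fold in WT cells (log2 -1.14, SE 0.13, adjusted p = 0.00021). CDC20, the activator of the APC, measured 7.67 and 8.13 in starved and 9.49 and 10.03 in untreated Btg1-/- cells, and 8.94 and 8.52 in starved and 10.67 and 10.71 in untreated WT cells. Its level dropped 3.63-fold in Btg1-/- (log2 -1.86, SE 0.21, adjusted p = 0.00075) and 3.89-fold in WT cells (log2 -1.96, SE 0.21, adjusted p = 0.0002). For both genes the 4 groups were separate, starved Btg1-/- cells lowest. BUB1B, the checkpoint protein BUBR1, measured 5.87 and 6.18 in starved and 6.90 and 7.53 in untreated Btg1-/- cells, and 6.46 and 6.06 in starved and 8.08 and 8.20 in untreated WT cells. It fell 2.29-fold in Btg1-/- (log2 -1.19, SE 0.25, adjusted p = 0.012) and 3.68-fold in WT cells (log2 -1.88, SE 0.25, adjusted p = 0.00059). Starved BUB1B levels of the genotypes overlapped and untreated ones did not.

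TTK, the kinase MPS1 that starts checkpoint signalling, measured 2.17 and 2.56 in starved and 3.20 and 5.39 in untreated Btg1-/- cells, and 2.74 and 2.90 in starved and 5.13 and 4.68 in untreated WT cells. Its 4 starved arrays were under the background level, so the WT fall was at least 3.76-fold against that level (adjusted p = 0.033), and the Btg1-/- difference, at least 2.45-fold, did not pass the test (adjusted p = 0.063) with replicates of 3.20 and 5.39 in untreated cells. UBE2C, the ubiquitin-conjugating enzyme of the APC, fell by 1.53 and 1.46 in Btg1-/- and WT cells, and ESPL1, separase, by 1.99 and 1.47. A list of 14 genes of the APC holds its subunits and also the coactivator FZR1, the inhibitor FBXO5 and the ubiquitin-conjugating enzyme UBE2S. Their median changes were -0.33 and -0.59, and 2 of the 14 fell in Btg1-/- and 5 in WT cells, FZR1 among the 5 (log2 -0.58, adjusted p = 0.013). ANAPC4 changed by -0.38 and -0.64 (adjusted p = 0.043 and 0.0022) and CDC16 by -0.58 and -0.73 (adjusted p = 0.012 and 0.0019) in Btg1-/- and WT cells.

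All 3 genes of the chromosomal passenger complex, which corrects faulty attachments and guides cytokinesis, fell in both genotypes. BIRC5, survivin, measured 7.84 and 7.99 in starved and 9.88 and 10.49 in untreated Btg1-/- cells, and 9.19 and 8.55 in starved and 10.98 and 10.96 in untreated WT cells. It fell 4.82-fold in Btg1-/- (log2 -2.27, SE 0.23, adjusted p = 0.0004) and 4.28-fold in WT cells (log2 -2.10, SE 0.23, adjusted p = 0.0002). INCENP, the scaffold of the complex, moved less than its partners and measured 7.36 and 7.36 in starved and 8.08 and 8.51 in untreated Btg1-/- cells, and 8.36 and 7.71 in starved and 9.12 and 9.10 in untreated WT cells. Its fall was 1.91-fold in Btg1-/- (log2 -0.93, SE 0.22, adjusted p = 0.018) and 2.11-fold in WT cells (log2 -1.07, SE 0.22, adjusted p = 0.0053). CDCA8, borealin, measured 6.87 and 6.97 in starved and 8.17 and 8.68 in untreated Btg1-/- cells, and 8.10 and 7.77 in starved and 9.18 and 9.43 in untreated WT cells. It fell 2.85-fold in Btg1-/- (log2 -1.51, SE 0.20, adjusted p = 0.0012) and 2.59-fold in WT cells (log2 -1.37, SE 0.20, adjusted p = 0.00086).

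At the centromere CENPA replaces histone H3 and recruits the inner kinetochore proteins CENPH, CENPI, CENPK, CENPN and CENPP, while SPC24 and SPC25 belong to the NDC80 complex that grips microtubules. Of 8 genes 7 fell in each genotype, with median changes of -1.31 in Btg1-/- and -1.41 in WT cells. CENPA measured 10.83 and 11.10 in starved and 11.97 and 12.43 in untreated Btg1-/- cells, and 11.75 and 11.63 in starved and 13.00 and 13.09 in untreated WT cells. It fell 2.36-fold in Btg1-/- (log2 -1.24, SE 0.15, adjusted p = 0.00092) and 2.56-fold in WT cells (log2 -1.36, SE 0.15, adjusted p = 0.0002). SPC25 measured 7.67 and 7.95 in starved and 8.99 and 9.34 in untreated Btg1-/- cells, and 8.23 and 8.16 in starved and 9.64 and 9.60 in untreated WT cells. Its fall was 2.56-fold in Btg1-/- (log2 -1.36, SE 0.15, adjusted p = 0.00068) and 2.68-fold in WT cells (log2 -1.42, SE 0.15, adjusted p = 0.00018). Both genes had 4 separate groups of arrays. CENPN measured 6.38 and 6.70 in starved and 7.54 and 8.07 in untreated Btg1-/- cells, and 7.36 and 6.96 in starved and 8.60 and 8.52 in untreated WT cells. It fell 2.4-fold in Btg1-/- (log2 -1.26, SE 0.22, adjusted p = 0.0047) and 2.64-fold in WT cells (log2 -1.40, SE 0.22, adjusted p = 0.0014), and another row under an older name of the gene, outside the list, gave -0.98 and -1.14.

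CENPK was the tested gene with the smallest response in WT cells, at 4.25 and 4.48 in starved and 4.81 and 5.02 in untreated Btg1-/- cells, and 5.01 and 4.63 in starved and 5.46 and 5.46 in untreated WT cells. Its change was -0.55 in Btg1-/- (SE 0.29, adjusted p = 0.25) and -0.64 in WT cells (SE 0.29, adjusted p = 0.15). CENPP fell by 1.78 and 2.33, SPC24 by 1.63 and 1.59, CENPI by 1.41 and 1.62 and CENPH by 1.14 and 1.26 on the log2 scale in Btg1-/- and WT cells. The row under an older name of NUF2, a partner of SPC24 and SPC25, lay below 3 on all 8 arrays (1.82 to 2.73). Of 16 other kinetochore and centromere genes with a row, 5 fell in each genotype. CENPT, which links centromere and NDC80 complex, changed by -0.82 and -0.72 (adjusted p = 0.0011 and 0.00093), and CENPL, a partner of CENPN, by -0.85 and -1.17 (adjusted p = 0.008 and 0.00078).

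Condensin and topoisomerase II compact and untangle chromosomes, and all 4 measured genes of this group fell in both genotypes, with a median change of -1.74 in each. TOP2A, the topoisomerase of dividing cells, measured 7.46 and 7.68 in starved and 8.99 and 9.47 in untreated Btg1-/- cells, and 8.44 and 8.03 in starved and 9.68 and 9.99 in untreated WT cells. It fell 3.16-fold in Btg1-/- (log2 -1.66, SE 0.20, adjusted p = 0.00097) and 3.04-fold in WT cells (log2 -1.60, SE 0.20, adjusted p = 0.00044). NCAPH, the kleisin of condensin I, measured 7.31 and 7.30 in starved and 8.91 and 9.57 in untreated Btg1-/- cells, and 7.99 and 7.79 in starved and 9.79 and 9.74 in untreated WT cells. Its fall was 3.83-fold in Btg1-/- (log2 -1.94, SE 0.19, adjusted p = 0.0004) and 3.67-fold in WT cells (log2 -1.88, SE 0.19, adjusted p = 0.00015). NCAPD2, another condensin I subunit, measured 4.52 and 4.58 in starved and 6.01 and 6.71 in untreated Btg1-/- cells, and 5.44 and 5.19 in starved and 6.96 and 6.71 in untreated WT cells. It fell 3.51-fold in Btg1-/- (log2 -1.81, SE 0.29, adjusted p = 0.0031) and 2.86-fold in WT cells (log2 -1.52, SE 0.29, adjusted p = 0.0039), and its untreated arrays touched between the genotypes. SMC2, the ATPase shared by both condensins, measured 2.31 and 2.69 in starved and 3.71 and 3.74 in untreated Btg1-/- cells, and 2.64 and 2.71 in starved and 5.08 and 4.85 in untreated WT cells. All starved arrays were under background, so it fell at least 1.65-fold in Btg1-/- (adjusted p = 0.035) and at least 3.89-fold in WT cells (adjusted p = 0.00094). The list of 9 other condensin and cohesin genes with a row holds 3 subunits particular to condensin II. NCAPG2, named after its values were seen, changed by -1.17 and -1.30 (adjusted p = 0.033 and 0.013), NCAPD3 by -0.58 and -0.51 (adjusted p = 0.029 and 0.034) and NCAPH2 by -0.29 and -0.25 (adjusted p = 0.17 and 0.19). Of those 9 genes 2 fell in Btg1-/- and 3 in WT cells.

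Spindle and midzone proteins build and bundle microtubules. Of 7 genes 4 fell in Btg1-/- and 6 in WT cells, with median changes of -1.0 and -1.60. PRC1, the bundler of the central spindle, measured 10.36 and 10.60 in starved and 11.70 and 12.31 in untreated Btg1-/- cells, and 11.33 and 11.15 in starved and 12.55 and 12.62 in untreated WT cells. It fell 2.88-fold in Btg1-/- (log2 -1.52, SE 0.17, adjusted p = 0.00075) and 2.54-fold in WT cells (log2 -1.34, SE 0.17, adjusted p = 0.00052). TPX2, the activator of Aurora A, fell by the least of the genes called, at 8.31 and 8.19 in starved and 8.80 and 9.16 in untreated Btg1-/- cells, and 9.05 and 8.79 in starved and 9.74 and 9.77 in untreated WT cells. The change was 1.66-fold lower in Btg1-/- (log2 -0.73, SE 0.15, adjusted p = 0.0098) and 1.79-fold in WT cells (log2 -0.84, SE 0.15, adjusted p = 0.0027). DLGAP5, which stabilises kinetochore fibres, measured 6.12 and 6.38 in starved and 7.37 and 8.30 in untreated Btg1-/- cells, and 7.12 and 6.92 in starved and 8.51 and 8.72 in untreated WT cells. It fell 3-fold in Btg1-/- (log2 -1.58, SE 0.27, adjusted p = 0.0045) and 3.03-fold in WT cells (log2 -1.60, SE 0.27, adjusted p = 0.0022). CKAP2L, a spindle protein also called radmis, had the largest response in Btg1-/- cells and measured 3.55 and 4.86 in starved and 6.60 and 7.32 in untreated Btg1-/- cells, and 5.67 and 5.54 in starved and 7.72 and 7.61 in untreated WT cells. It fell 6.76-fold there (log2 -2.76, SE 0.40, adjusted p = 0.002) and 4.17-fold in WT cells (log2 -2.06, SE 0.40, adjusted p = 0.0045), with starved Btg1-/- arrays more than 1 log2 unit apart.

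ASPM, a spindle pole protein, and TACC3, which crosslinks spindle microtubules, fell in WT cells, by 1.99 and 2.50, and changed by -1.0 (adjusted p = 0.15) and -0.97 (adjusted p = 0.29) in Btg1-/- cells. ASPM measured 4.79 and 5.89 in starved and 5.78 and 6.90 in untreated Btg1-/- cells, so it was lower in the starved array of each replicate number while replicate 2 stood above replicate 1 at both times. NUSAP1, a spindle protein near background, measured 3.14 and 2.35 in starved and 3.17 and 3.51 in untreated Btg1-/- cells, and 2.64 and 2.23 in starved and 4.06 and 3.11 in untreated WT cells. It changed by -0.59 in Btg1-/- (SE 0.44, adjusted p = 0.43) and -1.14 in WT cells (SE 0.44, adjusted p = 0.094). In WT cells, where both starved arrays were under background, the difference was at least 1.49-fold against that level. Of 10 other spindle and cytokinesis genes with a row, 4 fell in Btg1-/- and 3 in WT cells. CKAP5, a microtubule polymerase, changed by -0.41 and -0.40 (adjusted p = 0.16 and 0.14), and KPNA2, an importin that binds TPX2, by -1.39 and -1.23 (adjusted p = 0.003 and 0.0028).

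Of 14 other mitotic kinases, cyclins and regulators with a row, 3 fell in Btg1-/- and 5 in WT cells. CDCA2, which targets protein phosphatase 1 to chromatin, changed by -1.54 and -1.51 (adjusted p = 0.00068 and 0.00026), and CDC25A, the phosphatase that acts from G1 on, by -0.19 and -0.35 (adjusted p = 0.42 and 0.1). Over all 63 other mitotic genes with a row, 16 fell in Btg1-/- and 21 in WT cells, with median changes of -0.38 and -0.51. S phase replication genes stood between these and the listed 40. Of 30 with a row 13 fell in Btg1-/- and 14 in WT cells, with median changes of -0.61 and -0.55. RPA1, which coats single-stranded DNA, fell by 0.71 and 0.70 (adjusted p = 0.014 and 0.0094), and MCM5, a subunit of the replicative helicase, by 1.14 and 1.20 (adjusted p = 0.004 and 0.0015). CDT1, which loads that helicase in G1, was the single S phase gene that rose, by 0.69 and 0.87 (adjusted p = 0.015 and 0.0026). It was singled out for this after the values had been seen.

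**Figure D4:**
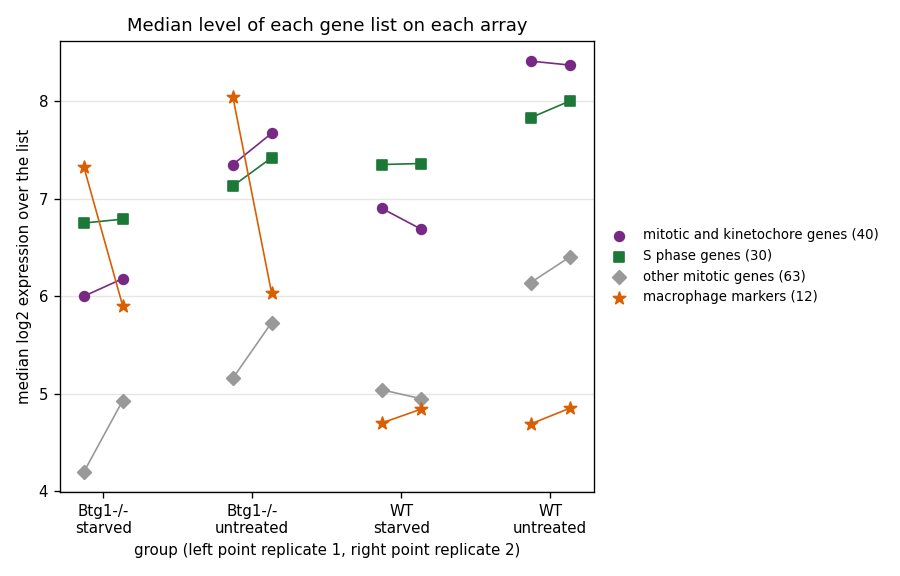
Median log2 expression (vertical axis) of 4 gene lists on each array, by group, with replicate 1 left and replicate 2 right of each group's centre and a line joining the pair. The median of the 40 mitotic and kinetochore genes lay between 6.00 and 6.18 in starved and 7.35 and 7.67 in untreated Btg1-/- cells, against 6.69 and 6.90 in starved and 8.37 and 8.41 in untreated WT cells, and macrophage markers were highest in Btg1-/- replicate 1.

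Btg1-/- cells had lower levels of most of the listed genes than WT cells, with and without glutamine, and few of the differences passed the test. In starved cells the median difference, Btg1-/- minus WT, was -0.64 (range -1.42 to 0.53), 35 of the 40 genes were lower by their means, and 4 were called lower. In untreated cells it was -0.78 (range -1.95 to 0.34), 39 of 40 were lower, and 2 were called lower. Among all rows tested 0.638% and 0.276% were called lower, 53.2% and 52.1% were lower by their means, and the median difference was -0.03 and -0.02. Every Btg1-/- array lay below every WT array for 31 of the 40 genes in starved and 34 in untreated cells, against 27.3% and 25.3% of all rows tested. Unadjusted limma p-values under 0.05 were found for 25 and 31 of the 39 genes tested, against 2137 and 2193 of all 12691 rows tested.

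The genes called lower in starved Btg1-/- cells were MAD2L1 (log2 -0.69, SE 0.13, adjusted p = 0.03 from limma), CDCA8 (-1.02, SE 0.20, adjusted p = 0.035), CENPA (-0.72, SE 0.15, adjusted p = 0.042) and PLK1 (-0.72, SE 0.15, adjusted p = 0.049). In untreated cells CENPA was lower by a log2 difference of -0.84 (SE 0.15, adjusted p = 0.042). CDC25B was at least 3.56-fold lower in untreated Btg1-/- cells, where it was under background, than in untreated WT cells (adjusted p = 0.041). Both calls in untreated cells, and all 4 in starved cells, were lost when certain single arrays were left out. The count ranged from 0 to 14 in starved and from 0 to 20 in untreated cells, the 20 being reached without untreated Btg1-/- replicate 2.

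Differences that missed the threshold were of like size in several groups. CDC20 differed by -0.83 in starved and -0.93 in untreated cells (adjusted p = 0.083 and 0.081), CCNB1 by -0.85 and -0.83 (0.064 and 0.089), AURKA by -0.93 and -0.75 (0.09 and 0.16) and BIRC5 by -0.96 and -0.79 (0.065 and 0.13). TPX2 differed by -0.67 and -0.78 (adjusted p = 0.052 and 0.055), PRC1 by -0.76 and -0.58 (0.058 and 0.13) and TOP2A by -0.66 and -0.60 (0.14 and 0.17). In 8 of 8 centromere and kinetochore genes every Btg1-/- array was below every WT array at both times. The largest differences in starved cells were those of ESPL1 at -1.42 (adjusted p = 0.078) and CKAP2L at -1.40 (adjusted p = 0.12). FOXM1 differed by 0.04 in starved and -0.68 in untreated cells (adjusted p = 0.94 and 0.13). S phase genes had median differences of -0.48 in starved cells, with 3 of 30 called lower, and -0.50 in untreated cells, with none of 30 called by limma and 18 at an unadjusted p under 0.05.

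**Figure D5:**
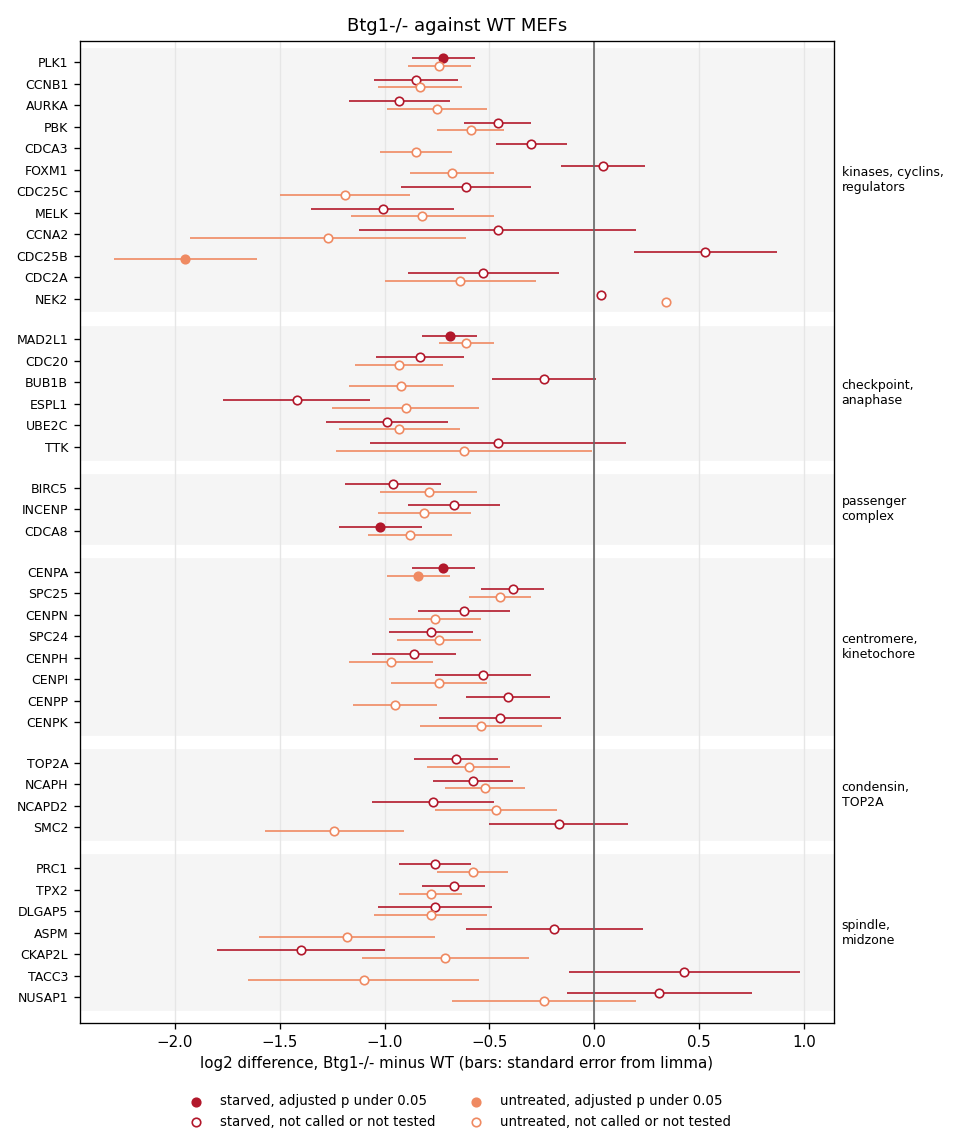
Log2 difference of each of the 40 genes between the genotypes (horizontal axis, Btg1-/- minus WT), starved in dark red above untreated in orange. Points are differences of group means (n = 2 each), bars standard errors from limma and filled points an adjusted p under 0.05, of which there are 4 in starved and 2 in untreated cells, and NEK2 was not tested. Most points lie left of 0, with medians of -0.64 and -0.78.

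These differences moved with the replicate as well. In untreated Btg1-/- cells replicate 1, the sample with the highest macrophage markers, was below replicate 2 for 40 of the 40 genes. The median shift was 0.50 on the log2 scale. In starved Btg1-/- cells replicate 1 was below replicate 2 for 30 of 40, by a median of 0.22. Starved WT replicates, with median macrophage levels of 4.70 and 4.84, differed as well. There replicate 1 was below replicate 2 for 10 of 40 and higher by a median of 0.24. In untreated WT cells it was below for 16 of 40 and higher by a median of 0.03. All 12 macrophage markers were higher in Btg1-/- cells by their means at both times, by medians of 1.71 in starved and 2.05 in untreated cells. None of the 12 was called by limma, 8 and 11 had an unadjusted p under 0.05, and AIF1 was under background on all 4 WT arrays (1.82 to 2.77). Without Btg1-/- replicate 1 at both times the median difference was -0.50 in untreated and -0.59 in starved cells, against -0.78 and -0.64 with all arrays. The part of other cells in the genotype difference was not tested.

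Of the 39 genes tested none had a difference in response between the genotypes that passed the adjustment over all rows. The difference in response, Btg1-/- minus WT, had a median of 0.10, with 25 genes above and 15 below 0. Of all rows tested 50.5% were below 0. No gene passed an adjusted p of 0.05 in limma, nor did any of the 12691 rows (0%), while 4 of the 39 genes and 815 of all rows had an unadjusted p under 0.05, with 95% confidence intervals that did not include 0. Those 4 were CDC25B, at 2.48 (SE 0.48, adjusted p = 0.44), SMC2, at 1.07 (SE 0.47, adjusted p = 0.77), FOXM1, at 0.72 (SE 0.28, adjusted p = 0.74), and CDCA3, at 0.55 (SE 0.24, adjusted p = 0.77). FOXM1 and CDCA3 had the smaller change in Btg1-/- cells, and CDC25B was called lower in WT cells only. SMC2 was under background on all starved arrays and CDC25B on both untreated Btg1-/- arrays, so the sizes of their differences rest on values under that level. For 26 of the 40 the difference lay within 0.3 of 0, but the 95% confidence intervals were wide. That of PLK1 ran from -0.47 to 0.51, that of CDC20 from -0.58 to 0.78 and that of CENPA from -0.35 to 0.59, and over the genes they reached to a median of 0.72 on either side.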

How the data were processed

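RNA of 8 MEF cultures, labelled as biological duplicates in each of 4 groups, was extracted with RNeasy columns, labelled with the Illumina TotalPrep kit and hybridised to MouseRef-8 v2 bead arrays. The authors normalized the data with RMA in ArrayStar, the submitters' processing notes name GenomeStudio 2011.1, and the deposited values are log2 expression, 1 per named row and array. RMA brings all arrays to 1 distribution, so a change is relative to the other genes. The authors' group means and fold ratios stand in another deposited table, which repeats the means of 18109 rows to within 5e-06 and was used for nothing else. Bead counts and detection p-values were not used here, so the number of arrays limits the precision.

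Of 18132 rows, 12691 with a group mean of at least 3 in at least 1 group were fitted with limma 3.58.1 in R 4.3.3, as 4 group means over 8 arrays with an intensity trend (4 residual degrees of freedom). Two-sided p-values were adjusted over these rows by the Benjamini-Hochberg method, and 5 comparisons were made. Nothing in the labels says which cultures were separate embryos beyond the word duplicate, so p-values measure the spread between these samples. The fit was tested on simulated data. Members were read by their listed row name and promoters by symbol and synonym in RefSeq tables of GRCm38.p6, 34 of 43 with a window.

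The list of genes, its 6 role groups and the lists of other pathway and cell type genes were chosen with earlier results of these data known. Values of every array were given for the 3 genes of each role group with the highest mean and the genes of largest and smallest response. They were also given for those that rose, those that differed between genotypes and those of smallest p for the difference in response. Genes below 3 in a group were treated likewise. Of each other pathway list the 2 with the highest mean were named, with changes and adjusted p only. FZR1 was named outside these rules. Alternatives were other filters, scalings, variance models, thresholds, replicate blocks and each array left out. Leaving out Btg1-/- replicate 1 or WT replicate 2 at both times was chosen after seeing the data.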

Additional observations from a re-analysis of the deposited data

Results flagged for a closer look

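CDC25B was the gene whose response differed most between the genotypes, by 2.48 on the log2 scale (Btg1-/- minus WT, 95% confidence interval 1.40 to 3.56, unadjusted p = 0.0005 and adjusted p = 0.44 from limma over all rows tested). It measured 3.66 and 3.35 in starved and 2.86 and 2.91 in untreated Btg1-/- cells, against 2.77 and 3.17 in starved and 4.94 and 4.72 in untreated WT cells. Both starved Btg1-/- arrays lay above both untreated ones, which were under background, and both starved WT arrays lay below both untreated ones. On 3 of the 8 arrays the value was under the background level of 3, and the difference did not pass the adjustment.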

How the results depend on the processing

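The median changes kept their sign under each alternative run, except the median difference in response, which is near 0. Counts of genes called between the genotypes did not hold, and fell to 0 under several alternatives. With a fold change of at least 3 and no test, 16 genes in Btg1-/- cells, 21 in WT cells, 0 between the starved genotypes, 1 between the untreated genotypes and 1 for the difference in response were called. Leave-one-out counts were 26 to 32 for the Btg1-/- response, 31 to 37 for the WT response, 0 to 14 for starved Btg1-/- against WT, 0 to 20 for untreated Btg1-/- against WT and 0 to 0 for the difference in response. Leave-one-out medians were -1.76 to -1.18, -1.66 to -1.49, -0.79 to -0.54, -1.05 to -0.50 and -0.12 to 0.28 for the same comparisons. Without WT replicate 2 at both times the WT response had 19 calls, both genotype comparisons 0, and the starved median difference was -0.79. Without Btg1-/- replicate 1 at both times both genotype comparisons had 0 calls, and the medians were -1.71 for the Btg1-/- response, -0.50 for the untreated genotypes and -0.08 for the difference in response.

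For starved Btg1-/- against WT (4 calls), 7 genes were called with a group mean of at least 5 required, 0 without an intensity trend, 0 at an adjusted p under 0.01 and 1 with an absolute log2 change of at least 1 required as well. For untreated Btg1-/- against WT (2 calls), the counts were 1 without a filter, 4 with a group mean of at least 5 required, 0 with at least 3 in all groups, 1 after another quantile normalization, 0 without an intensity trend, 0 on the 4 arrays of the comparison alone, 0 at an adjusted p under 0.01 and 1 with a log2 change of at least 1. With the replicate number as a block, 11 genes were called lower in each of the genotype comparisons. With the number within each genotype as a block, 33 genes were called in the Btg1-/- response and 37 in the WT response, the 3 added being ASPM, TTK and CDC25C (adjusted p = 0.014, 0.02 and 0.042 from limma). The labels do not pair the samples across groups, although macrophage markers and the Y-linked transcript went with the number within a genotype, and deviations of same-numbered samples correlated by 0.243 between the Btg1-/- groups, 0.118 between the WT groups and 0.024 to 0.105 otherwise. With TTTGAA alone 56.8% of promoter windows held a CHR match. The cause of these shifts was not tested.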
